A study of Mus musculus with 6 samples.

Results

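Endothelial transcripts were followed in RNA recovered from ribosomes of lung pericytes of C57BL/6 mice at postnatal day 8. The 10 genes were picked by symbol and matched to the GENCODE M21 annotation, as 10 of the 21603 genes in each table. They comprise 6 general endothelial genes (Pecam1, Cdh5, Cldn5, Emcn, Ramp2 and Egfl7), 3 capillary genes (Car4, Plvap and Aplnr) and 1 gene of large vessels (Vwf). All 10 had a value in every sample, and all 10 passed the filter of at least 1 RPKM (a read count scaled to exon length and to the mapped reads of the library) in at least 3 of the 6 samples, as did 12034 genes in total. The study compared 3 control lungs with 3 Yap1,Wwtr1 iPCKO lungs, in which Yap1 and Wwtr1 (encoding TAZ), the transcriptional effectors of the Hippo pathway, are deleted in pericytes. The iPCKO samples are labelled Yap1-/-;Wwtr1-/- and the controls Yap1+/-;Wwtr1+/-, so the controls had also lost a copy of each gene. All 6 mice carried the tamoxifen-inducible Pdgfrb(BAC)-CreERT2 transgene and a Cre-dependent Rpl22-HA allele, and received tamoxifen in the first days of life. The HA tag on the ribosomal protein RPL22 allowed the ribosomes of recombined cells to be immunoprecipitated from whole lung lysate with an antibody against HA. Recombination follows the Pdgfrb promoter, which marks pericytes but is also active in other mural and mesenchymal cells. In lung, the paper reports no reporter signal of this Cre line in PDGFRα-positive fibroblasts, bronchial smooth muscle cells or myofibroblasts.

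Pericytes are mural cells embedded in the basement membrane of capillaries, where they lie directly on endothelial cells. Endothelial cells line all blood vessels, and in the lung they form general capillary cells, gas-exchanging capillary cells called aerocytes, and the linings of arteries, veins and lymphatic vessels. Their cell identity genes are not characteristic of pericytes. The source of these transcripts in the pericyte ribosome preparation was not tested. The values do not separate RNA of other cells from low expression in the recombined cells. RNA of the unselected lysate was not analysed here. The levels below thus show how much of these transcripts the preparation held but not how far they were enriched or depleted. By RT-qPCR in older mice, the paper reports that endothelial and epithelial markers were depleted relative to the unselected lysate.

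The steps left by whole reads in low RPKM values imply 17.4 to 34.7 M reads per control sample and 14.2 to 39.6 M per iPCKO sample, so 1 read of a transcript with 1 kb of exons was worth 0.0252 to 0.0702 RPKM. Yap1 fell from 12.4 ± 0.859 (SD, n = 3) to 5.61 ± 0.314 RPKM (n = 3), a log2 fold change of -1.12. Wwtr1 was at 60.4 ± 9.48 RPKM in controls and 62 ± 1.63 RPKM in iPCKO samples, but a value for the whole gene does not separate the deleted exons from the others. The pericyte gene Pdgfrb was at 1369 to 1666 RPKM in controls and at 1193 to 1447 RPKM in iPCKO samples. Of 12 pericyte genes, 3 passed the thresholds of the comparison as higher and 2 as lower in iPCKO samples (3 to 4 in total with a sample left out, 1 with Y-linked transcripts as a covariate), so Pdgfrb does not stand for the whole list. Transcripts of the Y chromosome divided the controls: Ddx3y was at 17.22 RPKM in control 1 and 19.75 RPKM in control 3, but at 0.00 RPKM in control 2 and in all 3 iPCKO samples. Control 2 is thus the only control that matches the iPCKO samples in this respect. With the presence of Y-linked transcripts as a covariate, 1.03% of all tested genes passed the thresholds, and the values under this covariate are given with the results. Genes of blood cells were higher in the iPCKO samples and are described with Vwf.

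Among the 10 genes, Emcn and Egfl7 are shown with sequence because they are the general endothelial genes whose control and iPCKO samples did not overlap. Their promoter stretches end at the base before the first exon base of a transcript and come from RefSeq's table for GRCm38.p6. That table held windows for 4 of the 10 genes (Egfl7, Emcn, Car4 and Cldn5). Capitals mark the letters AGGAAG, or CTTCCT where they lie on the opposite strand, a core that many ETS-family factors bind. ETS factors such as ERG and FLI1 are well known regulators of endothelial genes. The letters occurred, on either strand, in 3 of the 6 windows of these genes and in 35.4% of all 32851 windows of 300 bases, so their presence is common and does not set these promoters apart. The Emcn stretch (chr3:137340828-137341066, plus strand) lies directly upstream of the gene. Both Egfl7 stretches (chr2:26580833-26581055 and chr2:26583615-26583863, plus strand) lie within the annotated gene, in introns of transcripts that start further upstream.
Emcn promoter: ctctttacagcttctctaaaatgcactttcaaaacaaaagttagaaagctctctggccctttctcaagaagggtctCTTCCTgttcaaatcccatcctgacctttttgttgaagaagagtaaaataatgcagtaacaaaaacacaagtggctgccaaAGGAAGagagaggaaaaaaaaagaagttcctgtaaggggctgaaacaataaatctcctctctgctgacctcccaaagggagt
Egfl7 upstream promoter: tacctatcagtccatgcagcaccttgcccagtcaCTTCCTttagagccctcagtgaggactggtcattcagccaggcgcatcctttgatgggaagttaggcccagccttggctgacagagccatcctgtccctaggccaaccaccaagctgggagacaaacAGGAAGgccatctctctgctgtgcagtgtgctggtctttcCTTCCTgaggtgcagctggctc
Egfl7 downstream promoter: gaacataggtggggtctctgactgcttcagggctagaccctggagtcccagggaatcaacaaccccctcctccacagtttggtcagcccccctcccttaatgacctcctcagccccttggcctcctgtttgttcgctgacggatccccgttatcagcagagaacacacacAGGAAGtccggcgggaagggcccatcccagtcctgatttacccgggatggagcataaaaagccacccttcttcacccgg
Egfl7 also hosts the endothelial microRNA miR-126, whose mature 3p arm is shown with its seed, bases 2 to 8, in capitals. The arm (chr2:26591402-26591423, plus strand, GRCm38.p6) lies in an annotated exon of an Egfl7 transcript. The microRNA itself was not measured in these libraries of long RNA.
mmu-miR-126a-3p: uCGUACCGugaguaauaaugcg

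Endothelial transcripts were readily measured in both groups, with Egfl7 highest and Car4 lowest in each group. In controls, Egfl7 was highest with a mean of 61 RPKM, which placed it at percentile 94.3 of the tested genes. Cldn5 (38.3 RPKM) and Cdh5 (32.9 RPKM) followed, and their samples overlapped. Pecam1 (16.9 RPKM) and Aplnr (12.1 RPKM) were each separated from their neighbours in this order, whereas Ramp2 (9.34 RPKM) overlapped with Plvap (6.89 RPKM) and Emcn (4.42 RPKM) with Vwf (4.14 RPKM). Car4 was lowest, with 1.92 RPKM, at percentile 10.4. In iPCKO samples the first 4 genes and the last had the same places. Aplnr, at 8.13 RPKM, stood below Ramp2 and Plvap instead of above them, and Vwf stood above Emcn, without overlap. Measured against Pdgfrb in the same sample, Cdh5 amounted to 1.89%, 2.4% and 2.2% of its RPKM in controls 1, 2 and 3, and to 2.38%, 2.54% and 2.8% in iPCKO samples 1, 2 and 3.

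**Figure D1:**
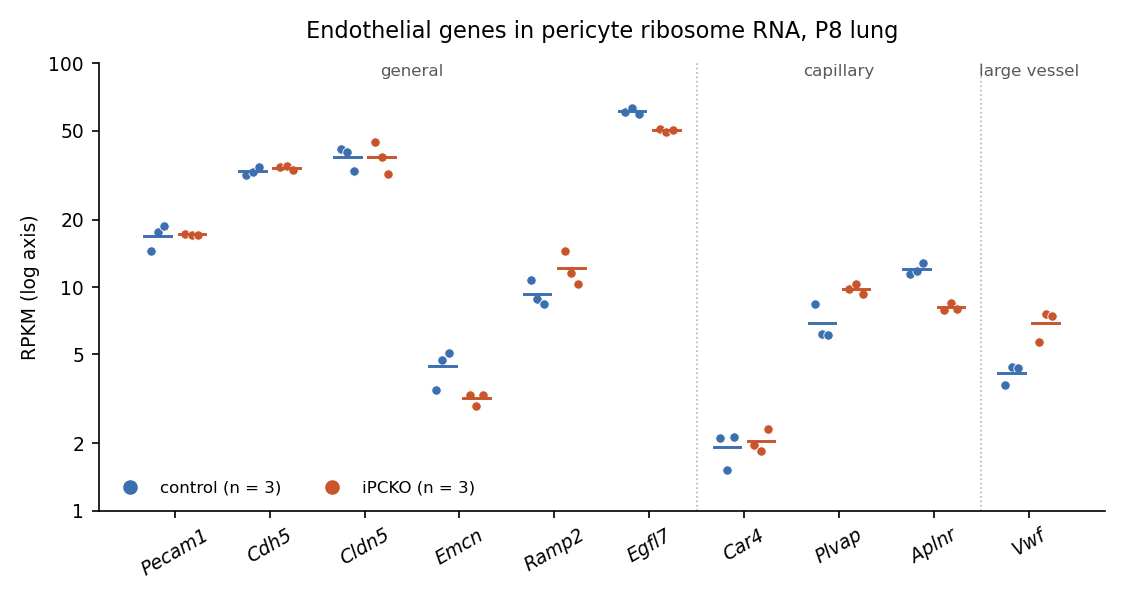
RPKM of the 10 endothelial genes (log axis) in the 3 control and 3 iPCKO samples, with 1 point per sample in the order of the replicate numbers and a line at the group mean. Control and iPCKO points do not overlap for Emcn, Egfl7, Plvap, Aplnr and Vwf, and overlap for the other 5 genes.

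The 3 genes of endothelial cell contacts, Cdh5, Pecam1 and Cldn5, did not differ between the groups beyond the spread of the samples. Cdh5 encodes VE-cadherin, the cadherin of endothelial adherens junctions. It was at 31.56, 32.82 and 34.47 RPKM in controls 1, 2 and 3 and at 34.41, 34.74 and 33.44 RPKM in iPCKO samples 1, 2 and 3. All 6 samples lay in a narrow and shared range, and the log2 fold change (iPCKO minus control) of 0.05 had a 95% confidence interval from -0.13 to 0.24 (limma, adjusted p = 0.69). Pecam1 encodes the adhesion molecule CD31. Its values were 14.42, 17.69 and 18.74 RPKM in controls and 17.25, 17.14 and 17.14 RPKM in iPCKO samples, so the controls enclosed the iPCKO samples. The log2 fold change of Pecam1 was 0.03 (95% confidence interval -0.22 to 0.27, limma adjusted p = 0.90). Cldn5, which encodes the claudin of endothelial tight junctions, was at 41.59, 40.15 and 33.16 RPKM in controls and at 44.60, 38.23 and 31.95 RPKM in iPCKO samples. Again the groups shared their range, with a log2 fold change of -0.01 (95% confidence interval -0.33 to 0.31, limma adjusted p = 0.98). In bulk samples such as these, fewer cells of a type and less RNA per cell cannot be told apart.

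The other 3 general genes did not pass the thresholds of the study (limma adjusted p under 0.01 together with a log2 fold change of more than 0.5 in either direction), but their samples were less intermingled. Egfl7 encodes a secreted protein that endothelial cells deposit in the matrix around vessels. It was at 60.64, 62.92 and 59.35 RPKM in controls and at 50.65, 49.47 and 50.50 RPKM in iPCKO samples. Every iPCKO sample was below every control, by a log2 fold change of -0.28 (standard error 0.08, limma adjusted p = 0.047). Exons of Egfl7 share bases with other annotated genes, the longest stretch being 264 bases (7.37% of its exonic length) shared with Gm20532 on the same strand. Emcn encodes endomucin, a sialomucin on the luminal surface of capillaries and veins. Its values were 3.46, 4.70 and 5.10 RPKM in controls and 3.31, 2.94 and 3.29 RPKM in iPCKO samples. The groups did not overlap, but control 1 was close to the iPCKO samples, and the log2 fold change was -0.45 (95% confidence interval -0.79 to -0.10, limma adjusted p = 0.087). Ramp2, the partner protein of the adrenomedullin receptor Calcrl, was at 10.77, 8.84 and 8.40 RPKM in controls and at 14.50, 11.55 and 10.28 RPKM in iPCKO samples. Control 1 lay above iPCKO 3, and the log2 fold change was 0.36 (limma adjusted p = 0.13). The value of Ramp2 is uncertain, since 1103 bases (33.4%) of its exons are shared with Vps25 on the same strand. Vps25 was at 0.803 ± 0.0993 RPKM (SD, n = 3) in controls and 0.809 ± 0.199 RPKM (n = 3) in iPCKO samples, below the filter.

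The 3 capillary genes went different ways. Aplnr encodes the receptor for apelin and is typical of general capillary cells in the lung. It was at 11.46, 11.85 and 12.85 RPKM in controls and at 7.89, 8.50 and 8.01 RPKM in iPCKO samples. Within each group the samples were close together, and no iPCKO sample came near a control. Aplnr fell to 67.5% of the control mean, a log2 fold change of -0.56 (standard error 0.09, 95% confidence interval -0.76 to -0.36) that passed both thresholds (limma adjusted p = 0.0034). The call of Aplnr depended on which libraries entered. It held without control 1 and without iPCKO 1 (limma adjusted p = 0.0063 and 0.0087), but not without control 2 (0.015), control 3 (0.022), iPCKO 2 (0.014) or iPCKO 3 (0.014), while the log2 fold change stayed between -0.60 and -0.51. Plvap encodes the protein of the diaphragms that span caveolae and fenestrae. Its values were 8.41, 6.18 and 6.08 RPKM in controls and 9.80, 10.34 and 9.33 RPKM in iPCKO samples, so every iPCKO sample was above every control, with control 1 the nearest. The log2 fold change of 0.52 (standard error 0.13) did not pass the threshold on the adjusted p-value (limma adjusted p = 0.032). Car4 encodes the membrane-bound carbonic anhydrase IV, which is concentrated in aerocytes in the lung. It was at 2.12, 1.52 and 2.13 RPKM in controls and at 1.97, 1.86 and 2.32 RPKM in iPCKO samples. The groups overlapped, and at this low level the interval of the log2 fold change was wide (0.10, 95% confidence interval -0.29 to 0.49, limma adjusted p = 0.74).

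Vwf encodes von Willebrand factor, which endothelial cells of larger vessels store in Weibel-Palade bodies. It was at 3.66, 4.40 and 4.37 RPKM in controls and at 5.71, 7.58 and 7.45 RPKM in iPCKO samples, with no overlap and with iPCKO 1 the lowest of its group. Vwf rose to 167% of the control mean, a log2 fold change of 0.72 (standard error 0.14, 95% confidence interval 0.41 to 1.03) that passed both thresholds (limma adjusted p = 0.0090). This call held without iPCKO 1 (limma adjusted p = 0.0024), but not without control 1 (0.028), control 2 (0.022), control 3 (0.028), iPCKO 2 (0.042) or iPCKO 3 (0.036), with log2 fold changes from 0.63 to 0.85. Vwf is also made by megakaryocytes and carried by platelets, and platelet genes rose in the same samples. Of 8 platelet genes, the 6 that were tested passed the thresholds, but 3 of these (Gp9, Gp5 and Treml1) were below 1 RPKM in every control and entered the test only through the iPCKO samples. Without a sample, 3 to 6 passed, fewest without iPCKO 2, and with Y-linked transcripts as a covariate none passed in limma, although all 6 had an unadjusted p-value below 0.05. None of the 8 was at 0 in any sample. Their summed level was 5.86 to 7.99 RPKM in controls and 22.4 to 66.1 RPKM in iPCKO samples. Pf4, platelet factor 4, was at 3.64, 3.13 and 1.97 RPKM in controls and at 8.95, 12.48 and 21.43 RPKM in iPCKO samples. Pecam1, which platelets also carry, had an iPCKO mean of 17.2 RPKM against 16.9 RPKM in controls. The part of platelet RNA in the Vwf result was not tested.

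**Figure D2:**
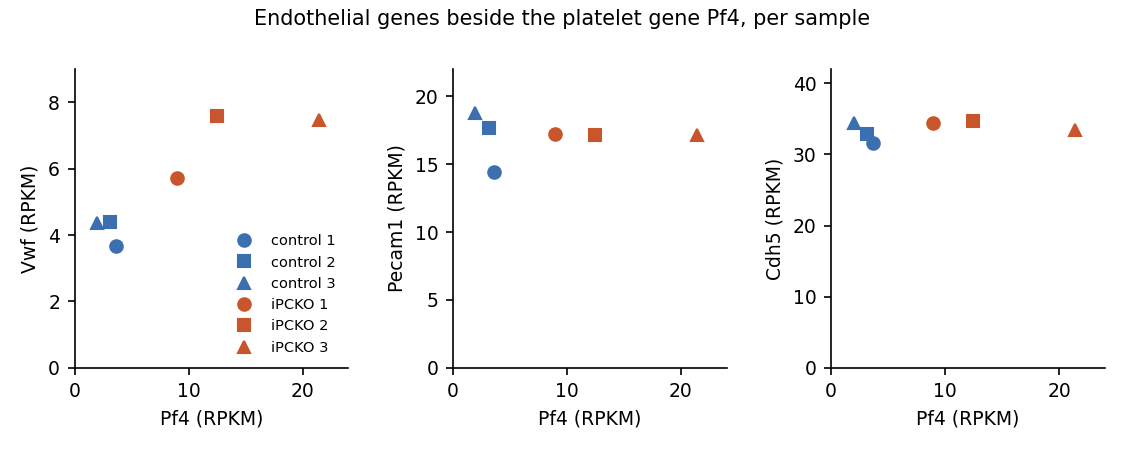
RPKM of Vwf, Pecam1 and Cdh5 (vertical axes, from 0) against RPKM of the platelet gene Pf4 (horizontal axis), with 1 point for each of the 6 samples. All 3 iPCKO samples lie to the right of the controls for Pf4 and above them for Vwf, whereas Pecam1 and Cdh5 share their range between the groups.

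In total, 2 of the 10 genes passed both thresholds, 1 in each direction. Over all 12034 tested genes the share was 6.79%, with 4.11% higher and 2.68% lower in iPCKO samples. An adjusted p-value below 0.05 without a threshold on the fold change was reached by 4 of the 10 genes (Egfl7, Plvap, Aplnr and Vwf) and by 15.2% of all tested genes. The groups did not overlap for 5 of the 10 genes, 2 higher and 3 lower, and for 35.5% of all tested genes. The median log2 fold change was 0.04 over the 10 genes and 0.00 over all tested genes, and the median of its absolute value was 0.32 and 0.17. In the exact permutation test (two-sided), the 5 genes without overlap had p = 0.1, the smallest p that 3 samples against 3 allow.

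With the presence of Y-linked transcripts as a covariate, neither Aplnr nor Vwf passed. The log2 fold change of Aplnr was then -0.54 (limma adjusted p = 0.085) and that of Vwf 0.63 (limma adjusted p = 0.17). Of the other genes without overlap, Egfl7 was then at -0.33 (limma adjusted p = 0.24), Emcn at -0.55 (0.27) and Plvap at 0.66 (0.12). With that covariate none of the 10 genes passed in limma, and 5 had an unadjusted p-value below 0.05, as had 17% of all tested genes. Between control 2 and the iPCKO samples, in which Y-linked transcripts were at or near 0, the values above give the same order for Aplnr and Vwf. The difference of genotype and that of the Y-linked transcripts can be told apart only through control 2.

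**Figure D3:**
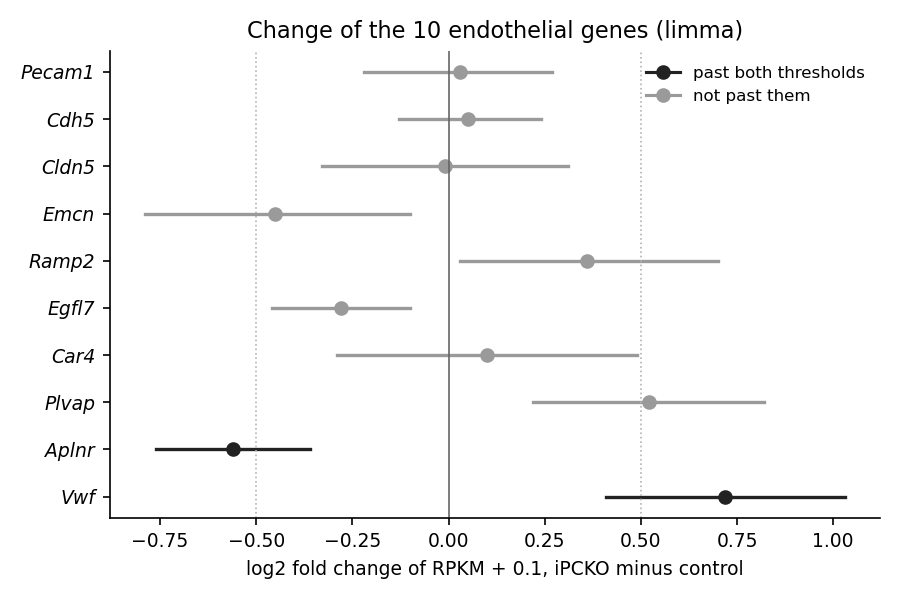
Log2 fold change of RPKM + 0.1 (iPCKO minus control, n = 3 per group) for the 10 endothelial genes, with 95% confidence intervals from limma and dotted lines at the fold threshold. Aplnr (-0.56) and Vwf (0.72) are drawn dark because they passed both thresholds, and the intervals of Pecam1, Cdh5, Cldn5 and Car4 include 0.

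A further 72 genes with a known place in endothelial cells, in 8 lists, gave a wider view. Of these, 61 were high enough to be tested, 6 passed as higher (Kdr, Flt1, Lmo2, Hey1, Unc5b and Bst1) and 1 as lower (Ecscr) in iPCKO samples, beside the 4.11% and 2.68% of all tested genes given above. Their median log2 fold change was 0.07. In a list of 14 receptors and enzymes, 13 were tested and 2 passed, both receptors for VEGF-A. Kdr, the main signalling receptor for VEGF-A, was at 12.99, 16.72 and 16.36 RPKM in controls and at 24.04, 27.91 and 26.49 RPKM in iPCKO samples. Flt1, which binds VEGF-A as a decoy, was at 6.27, 6.91 and 7.12 RPKM in controls and at 9.90, 11.88 and 12.54 RPKM in iPCKO samples. Both genes were higher in all 3 iPCKO samples without overlap, with log2 fold changes of 0.77 for Kdr (limma adjusted p = 0.0031) and 0.74 for Flt1 (limma adjusted p = 0.0029). Flt4, the receptor for VEGF-C on lymphatic vessels, had a log2 fold change of -0.04 (limma adjusted p = 0.84). The other 11 tested genes of the receptor list, among them the angiopoietin receptor Tek, Tie1 and Eng, did not pass. In the list of 14 surface and junction genes, 12 were tested and only Ecscr passed. Ecscr encodes a membrane protein that regulates endothelial cell migration. It was at 12.96, 11.78 and 12.28 RPKM in controls and at 8.07, 7.22 and 8.06 RPKM in iPCKO samples, a log2 fold change of -0.66 (limma adjusted p = 0.0018).

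Among the lists of vessel types, none of the 6 tested general capillary genes and none of the 6 tested aerocyte genes passed in limma. In each list 2 had an unadjusted p-value below 0.05, as had 29.7% of all tested genes. The aerocyte list includes Tbx2, at 208.07 to 306.42 RPKM in controls, against a mean of 1.92 RPKM for Car4. Which cells the reads of Tbx2 came from was not tested, so the list does not stand for aerocytes alone. Of 7 tested arterial genes 2 passed, Unc5b (0.74) and the Notch target Hey1 (0.55). All 7 had a positive log2 fold change, with a median of 0.49. Without overlap between the groups were 4, all higher in iPCKO samples, beside 35.5% of all tested genes in either direction. Bmx, among these 4 but not past the thresholds, was below 1 RPKM in every control and was tested only through the iPCKO samples. Unc5b, a netrin receptor, stood at percentile 91.4 of the tested genes in controls, at 39.53 to 51.99 RPKM in controls and 68.78 to 79.64 RPKM in iPCKO samples. Hey1 was at 6.59 to 7.53 RPKM in controls and at 10.06 to 10.88 RPKM in iPCKO samples. Both are expressed in mesenchymal cells as well, so they do not mark endothelial RNA alone. Of 4 tested venous genes, Bst1 passed with a log2 fold change of 2.52. Bst1 encodes an ectoenzyme that myeloid cells express strongly, and it was at 0.40 to 0.47 RPKM in controls and at 1.95, 3.27 and 4.32 RPKM in iPCKO samples 1, 2 and 3. Since all its controls were below 1 RPKM, it was tested only through the iPCKO samples and left the test when 1 RPKM was required in all samples. The 10 neutrophil genes had the same order among the iPCKO samples, with summed levels of 447, 1980 and 4933 RPKM against 86.7 to 129 RPKM in controls. All 10 were above their controls in every iPCKO sample, and none was at 0. Of the 10, 5 passed the thresholds (10 without iPCKO 1, 4 without iPCKO 3 and 1, Csf3r, with any other sample left out). None passed in limma with Y-linked transcripts as a covariate, where 6 had an unadjusted p-value below 0.05. Ly6g was below 1 RPKM in every control and was tested only through the iPCKO samples. When 1 RPKM was required in all samples, 8 neutrophil genes were tested and 5 passed. The part of myeloid RNA in the Bst1 result was not tested. Of 9 transcription factors only Lmo2 passed, with a log2 fold change of 0.79. Lmo2 is shared between endothelial and blood-forming cells, and it was at 8.23 to 9.16 RPKM in controls and at 19.28, 12.53 and 14.05 RPKM in iPCKO samples 1, 2 and 3. It was highest in iPCKO 1, where the 6 erythrocyte genes summed to 6016 RPKM, against 1363 RPKM in iPCKO 2, 2540 RPKM in iPCKO 3 and 2217 to 2771 RPKM in controls. The part of blood cell RNA in the Lmo2 result was not tested. None of the 4 tested lymphatic genes passed in limma, although 3 had an unadjusted p-value below 0.05, among them Mmrn1, which was below 1 RPKM in every control. The lymphatic regulator Prox1 was below the filter.

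**Figure D4:**
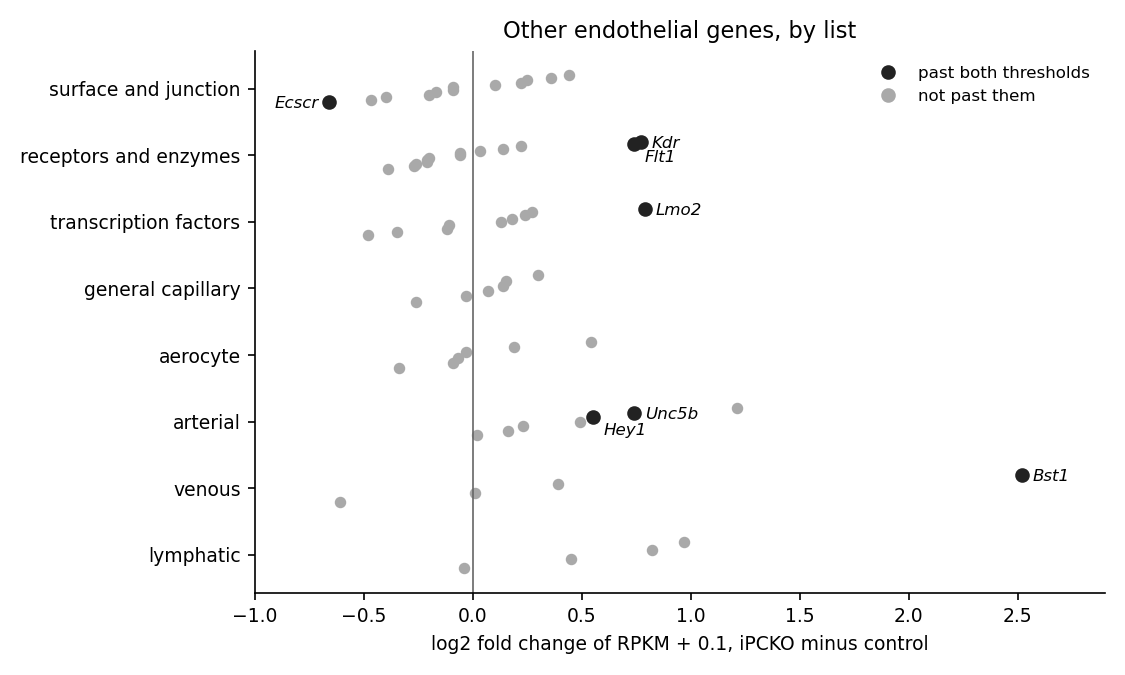
Log2 fold change of RPKM + 0.1 (iPCKO minus control) of the 61 tested other endothelial genes, with 1 point per gene in rows for the 8 lists. The 7 named genes, drawn dark, passed both thresholds, with Bst1 at 2.52 the farthest from 0.

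Calls in this wider set also depended on the libraries. Bst1 passed in all 6 fits that left out a sample, but was not tested when 1 RPKM was required in all samples. Ecscr passed in 4 of 6, failing without control 3 and without iPCKO 2. Kdr passed in 3, failing without control 3, iPCKO 2 or iPCKO 3. Lmo2 passed in 2, without iPCKO 1 or iPCKO 2, and Hey1 in 2, without control 1 or iPCKO 1. Flt1 passed in 1, without iPCKO 1, and Unc5b in 1, without control 1. With Y-linked transcripts as a covariate none of the 61 passed in limma, and 15 had an unadjusted p-value below 0.05, beside 17% of all tested genes.

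Taken over the list, the mean log2(RPKM + 0.1) of the 10 endothelial genes was 3.510, 3.502 and 3.540 in controls 1, 2 and 3 and 3.590, 3.567 and 3.543 in iPCKO samples 1, 2 and 3. The groups did not overlap, but control 3 and iPCKO 3 were nearly equal. They differed by 0.049 in the mean of each group, where the larger SD of the 2 groups was 0.024, with opposite differences of single genes entering the mean. The median over the 10 genes overlapped, at 3.49, 3.37 and 3.39 in controls 1, 2 and 3 and 3.59, 3.46 and 3.31 in iPCKO samples 1, 2 and 3. In summed RPKM the 10 genes were at 185 to 191 in controls and at 174 to 190 in iPCKO samples. For the other 72 endothelial genes, the mean log2(RPKM + 0.1) was 2.47, 2.53 and 2.53 in controls 1, 2 and 3. It was 2.64, 2.71 and 2.70 in iPCKO samples 1, 2 and 3, a difference of 0.17 without overlap. This mean includes 11 genes that were too low to be tested. In summed RPKM the 72 genes were at 1265 to 1382 in controls and at 1241 to 1375 in iPCKO samples. Genes far above Cdh5 (32.9 RPKM in controls) weigh heavily in this sum. Tbx2 alone had a mean of 250 RPKM in controls and 235 RPKM in iPCKO samples. Which cells these reads came from was not tested, so the sum does not measure endothelial RNA alone. Lists of other cells moved differently. None of the 8 fibroblast genes passed, and Pdgfra was at 29.78 to 44.14 RPKM in controls and at 33.05 to 45.84 RPKM in iPCKO samples. Of 9 tested epithelial genes 1 passed, Sftpb (log2 fold change 0.55), which without a sample passed only when iPCKO 1 was left out and which had an adjusted p of 0.14 in limma with Y-linked transcripts as a covariate. The list summed to 571 to 657 RPKM in controls and 833 to 885 RPKM in iPCKO samples, without overlap. Sftpc, the gene of surfactant protein C (mean 363 RPKM in controls and 454 RPKM in iPCKO samples), and Scgb1a1 (114 and 212 RPKM) weigh heavily in this sum. Of the 9 tested genes, 7 had a positive log2 fold change and 2 a negative one, Aqp5 (-0.22) and Nkx2-1 (-0.12). That of Sftpc was 0.33 (limma adjusted p = 0.092). Of 6 smooth muscle genes Actg2 (1.59) and Cnn1 (1.11) passed as higher and Lmod1 (-0.97) as lower, each also without any 1 sample, and Lmod1 alone with Y-linked transcripts as a covariate, whereas Acta2 had a log2 fold change of 0.05 (limma adjusted p = 0.86). Of 8 tested leukocyte genes 5 passed, all higher (2 to 6 without a sample, fewest without control 1). None of them passed in limma with Y-linked transcripts as a covariate, where 6 had an unadjusted p-value below 0.05. The leukocyte list had a summed level of 55.9 to 75.5 RPKM in controls and 135 to 224 RPKM in iPCKO samples. Ptprc, the gene of CD45, had a log2 fold change of 1.17 (limma adjusted p = 0.021). S100a8 of neutrophils was at 25.63 to 39.35 RPKM in controls and at 156.16 RPKM or more in iPCKO samples. Hbb-bs of erythrocytes was at 717.23 to 3341 RPKM in iPCKO samples, a range that enclosed the controls. The part of these cells' RNA in the values of the 10 endothelial genes was not tested.

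**Figure D5:**
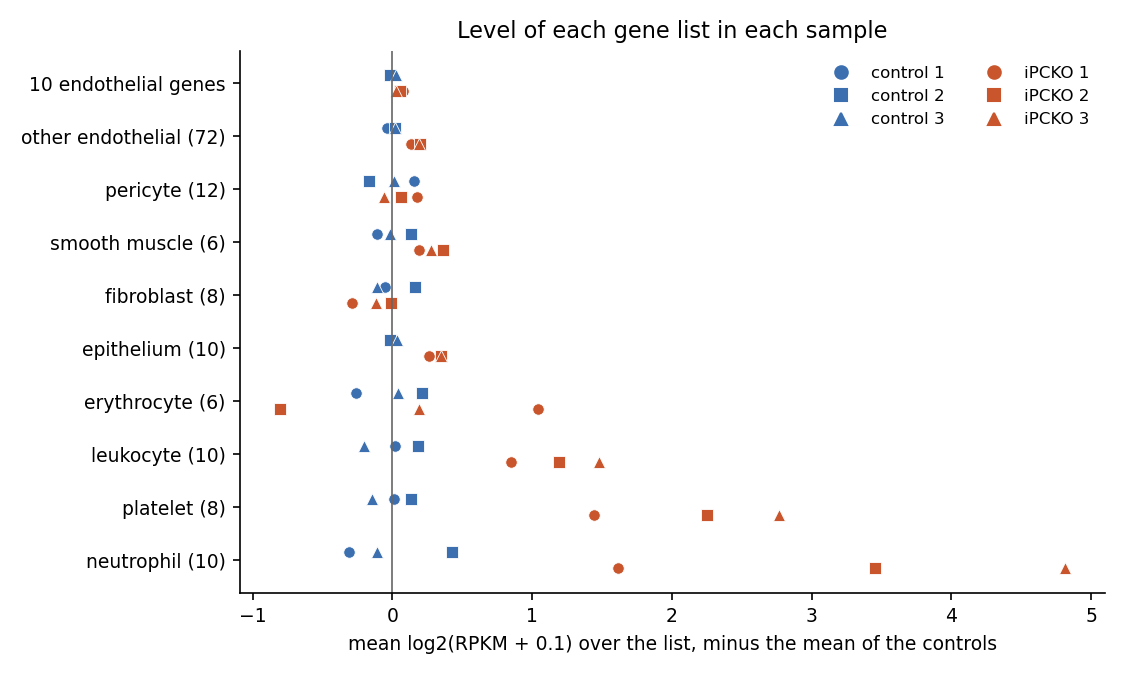
Mean log2(RPKM + 0.1) over each gene list (number of genes in brackets) in each sample, minus the mean of the 3 controls, for the 10 endothelial genes and 9 other lists. The 10 endothelial genes lie close to 0 in all 6 samples, with the iPCKO samples slightly above the controls, while leukocyte, platelet and neutrophil lists lie to the right in all 3 iPCKO samples.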

How the data were processed

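RNA from HA-tagged ribosomes of 3 control and 3 iPCKO lungs was sequenced as stranded total RNA libraries with paired-end reads. The authors used TopHat for mapping to mm10 (GRCm38), HTSeq 0.6.1 for read counts per gene and DESeq2 for testing. The values analysed here are the RPKM the authors deposited, 1 table per sample, already divided by depth and exonic length. Which exon length entered and whether counting used the strand are not given in the sources used here. Symbols and 1-based coordinates came from GENCODE M21 (21375 of 21603 genes matched).

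Groups and replicate numbers were taken from the sample labels. The 12034 genes that reached 1 RPKM in 3 or more samples were tested by limma 3.58.1 (R 4.3.3) on the scale of log2(RPKM + 0.1). Variances were moderated with a trend on mean level, and p-values were adjusted over all of these genes by the Benjamini-Hochberg method. Fold changes are differences on that scale and understate those of low genes. Genes were called where the adjusted p was under 0.01 and the log2 fold change exceeded 0.5 in either direction, as in the study. The script was tested on simulated data. Depth was read from low values of genes with a single transcript, of which 75.3% to 77.1% fell within 0.02 reads of a whole number. It describes the libraries, and no counts were rebuilt from it.

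The 10 genes and all gene lists were chosen with earlier results of these data known. Named were the 10 genes in every sample, the deleted genes, every called gene of the other endothelial lists, the first gene of each list of other cells with its called genes where there were at most 3, and the 10 genes most correlated with the mean of the 10. Y-linked genes, Vps25, Tek, Tie1, Eng, Flt4, Bmx, Mmrn1 and Prox1 were named outside this rule after their values had been seen. So were Gp9, Gp5, Treml1, Csf3r, Tbx2, Ly6g, Scgb1a1, Aqp5 and Nkx2-1. Alternatives were pseudocounts of 0.01 and 1 RPKM, 2 other filters, median-ratio and quantile scaling, sample weights, a replicate block, other thresholds and each sample left out. A covariate for Y-linked transcripts, and control 2 alone against iPCKO, were added after seeing the data. Same-numbered samples had correlations of their deviations from the group means of 0.238, 0.092 and 0.022, so the numbers were not taken as pairs. Figures were drawn with matplotlib 3.10.9 in Python 3.11.15.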

Additional observations from a re-analysis of the deposited data

How the results depend on the processing

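All counts below are from limma at the thresholds of the report unless stated. Of all genes, 817 were called. Sample weights gave 1590, an adjusted p-value below 0.05 gave 1313, an absolute log2 fold change above 1 gave 411, and the covariate for Y-linked transcripts, chosen after seeing the data, gave 124. Leaving out each sample in turn gave 382 to 899, fewest without control 3. Of the 10 endothelial genes, 2 were called. The count was 1 (Aplnr) without a filter on low values and with median-ratio scaling, where Vwf had adjusted p-values of 0.018 and 0.011, 3 at an adjusted p-value below 0.05 (with Plvap) and 4 with sample weights (with Emcn and Plvap). It was 0 at an absolute log2 fold change above 1 and 0 with the Y-linked covariate. At an unadjusted p-value below 0.05 were then 6 and 5 of the 10 genes, beside 29.7% and 17% of all tested genes. It was 0 to 2 with each sample left out, 0 without control 2, control 3, iPCKO 2 or iPCKO 3, where 4 to 6 genes had an unadjusted p-value below 0.05. The share of all tested genes below 0.05 in those fits is not given here, so these counts do not set the 10 genes apart. Of the other endothelial genes 7 were called, against 14 with sample weights, 11 at an adjusted p-value below 0.05, 1 (Bst1) above an absolute log2 fold change of 1, 0 with the Y-linked covariate and 1 to 6 with each sample left out, fewest without control 3. The adjusted p-value of Aplnr ranged from 0.0002 to 0.085 and that of Vwf from 0.00018 to 0.17 over all alternatives, and neither changed direction. Fits that left a sample out also had fewer samples, and the cause of these shifts was not tested.

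With a replicate block, 922 genes, the same 2 of the 10 (Aplnr and Vwf) and 8 other endothelial genes (with Nr2f2) were called. Only control 1 and iPCKO 1 correlated best with their own number in both directions, and control 2 correlated best with iPCKO 3 (0.273).

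Log2 fold changes close to 0 changed sign. That of Pecam1 was -0.01 with quantile scaling, -0.06 with sample weights, -0.04 with the Y-linked covariate and -0.08 to 0.10 with each sample left out. That of Cldn5 was 0.06 with sample weights and -0.12 to 0.12 with each sample left out, and that of Car4 -0.05 to 0.18. The mean difference over the 10 genes was 0.049, and 0.017 with quantile scaling. For Car4, the lowest of the 10, 1 read was worth 0.0128 to 0.0358 RPKM.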

Other observations

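Within the capillary genes, Plvap was higher and Aplnr lower in every iPCKO sample, so their ratio had to separate the groups. The ratio of Plvap to Aplnr RPKM was 0.73, 0.52 and 0.47 in controls 1, 2 and 3 and 1.24, 1.22 and 1.16 in iPCKO samples 1, 2 and 3. Among the receptors, the ratio of Kdr to Tek RPKM was 0.64, 0.74 and 0.61 in controls and 1.17, 1.39 and 1.38 in iPCKO samples. The ratio of Vwf to Cdh5 RPKM was 0.12, 0.13 and 0.13 in controls and 0.17, 0.22 and 0.22 in iPCKO samples. These ratios, which need no scaling between samples, were chosen after the values had been seen and carry no test.

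The 10 endothelial genes did not share 1 profile over the 6 samples. The correlation of each gene with the mean of the 10, given as a description, ran from -0.85 for Egfl7 and -0.74 for Aplnr to 0.75 for Ramp2 and 0.79 for Cdh5. Each of the 10 is itself part of that mean, unlike the genes outside the 10. The tested genes whose profile was most like that mean were Nek6 (Pearson r = 0.989 over 6 samples), Tubb2b, Mafg, Fam133b, Fnip2, Snrk, Gnb4, Srpr, Diras2 and Ttll7 (0.982), and none of them is on the endothelial lists. Correlations above 0.8 were found for 5 of the 61 other endothelial genes (8.2%) and for 6.06% of the 12024 genes outside the 10. The points share the 6 libraries and the group difference, and the mean itself ranged over only 0.089 on the log2 scale.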
